A study of Mus musculus with 15 samples.

Results

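Messenger RNA of 37 lysosomal genes was followed in RAW264.7, a mouse cell line with macrophage properties, after treatment with 1 of 4 glucocorticoids or with solvent before the bacterial product LPS (lipopolysaccharide). The genes were taken from a list of lysosomal names, drawn up with earlier results of these data known, and each was read by its brightest tested array probe. All 37 had a tested probe, among 19496 genes tested in all. The list holds 10 cathepsins and related proteases, 6 proteins of the lysosomal membrane, 15 hydrolases and their helper proteins, 5 parts of the proton pump and the transcription factor gene Tfeb.

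Lysosomes are acidic compartments in which cells break down protein, lipid, sugar chains and engulfed particles. The vacuolar proton pump (V-ATPase) acidifies them, soluble hydrolases reach them mostly through the mannose 6-phosphate route, and membrane glycoproteins line and protect them. TFEB and the related factors TFE3 and MITF bind promoters of many lysosomal genes at a short element that contains CACGTG, and macrophages rely on the compartment to digest what they take up and to process antigen.

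Each group had 3 one-colour arrays. The vehicle group received ethanol and DMSO (dimethyl sulfoxide), and the other groups received dexamethasone (DEX), fluticasone furoate (FF), VSG158 or VSG159, each at 100 nM for 1 h before LPS at 1 ug/ml for 16 h. The protocol is shared by all samples and is taken here to give LPS to the vehicle cells as well, so no group without LPS enters. DEX and FF are synthetic glucocorticoid drugs, and FF differs from DEX among other things by a furoate ester and a fluoromethyl thioester; VSG158 and VSG159 are known here by code name alone. RAW264.7 is a single transformed line, and the study's own description speaks of duplicate treatments where the labels give 3 samples a group. The labels do not say whether the 3 samples of a group came from separate cultures, so p-values measure the spread between these samples, which may be technical.

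The arrays lay on 2 slides. Vehicle, VSG158 and arrays 1 and 2 of VSG159 were on slide 1, and array 3 of VSG159, FF and DEX were on slide 2, so DEX and FF shared no slide with vehicle. The 75th percentile of the signal was 695 to 1223 per array, and 39.6% to 50.4% of spots were well above background. VSG158 array 3 and VSG159 arrays 1 and 2 stood apart, with 541 to 889 non-uniform spots against 26 to 218 on the other 12 arrays. Fits with slide as a fixed block take the slide difference from VSG159 alone, array 3 against these arrays 1 and 2. All 10 macrophage markers were well above background on all 15 arrays, and all 3 mast cell markers on none. Of 4 epithelial markers, Krt8 and Cdh1 were above background on none and Epcam and Krt18 on some. Some markers of other cell types were above background on all 15 arrays, namely the T cell genes Cd3e and Cd4, the fibroblast gene Dcn and the neutrophil genes S100a8 and Elane, while Cd3g, Cd8a, Col1a1, Pdgfra, S100a9 and Ly6g were on none. Their part in the results was not tested. The steroid-induced genes Hp, Fkbp5 and Tsc22d3 rose and the LPS-induced cytokine gene Il1b fell in all 4 comparisons with vehicle, with log2 changes of Il1b of -2.06 with DEX and -3.72 with FF. Of the 37 lysosomal genes, 35 were well above background on all 15 arrays, and Galc and Atp6v0d2 were on 14.

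Against vehicle, most of the lysosomal genes that passed the test were lower, and a subset of the hydrolases was higher. A gene was called at an adjusted p under 0.05 (limma, Benjamini-Hochberg over all genes tested). With DEX 24 of 37 were called, 17 lower and 7 higher, where 46.3% of all genes were called, 23.1% lower and 23.2% higher. With FF 26 were called, 19 lower and 7 higher, where 42.2% of all genes were called, 21.4% lower and 20.9% higher. With VSG158 26 were called, 21 lower and 5 higher, where 44.2% of all genes were called, 24.5% lower and 19.7% higher. With VSG159 26 were called, 20 lower and 6 higher, where 44.1% of all genes were called, 25% lower and 19.1% higher. The calls made up 64.9% of the lysosomal genes with DEX and 70.3% with each of the others. These shares over all genes include many dimmer genes. With probes well above background on all 15 arrays, 23, 25, 25 and 24 of 35 lysosomal genes were called with DEX, FF, VSG158 and VSG159. Among all genes so filtered, 7829 of 14498, 7305 of 14499, 7504 of 14499 and 7661 of 14495 were called. With the array median subtracted in place of the 75th percentile, 11, 13, 14 and 12 were called, and calls over all genes fell from 9034 to 4922 with DEX.

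The median log2 change of the 37 genes was -0.21, -0.35, -0.37 and -0.31 for DEX, FF, VSG158 and VSG159 in turn. On all 3 arrays below every vehicle array were 17 genes with DEX (29.7% of all genes), 21 with FF (30.5%), 21 with VSG158 (29.9%) and 21 with VSG159 (29%), and above every vehicle array were 9 (30.3%), 7 (26.8%), 7 (22.3%) and 7 (21.8%). Over all genes the medians were 0.03, -0.05, -0.06 and -0.06. Changes of 2-fold or more were few: 3 of 37 with DEX (17.2% of all genes), 5 with FF (16.6%), 4 with VSG158 (16.9%) and 6 with VSG159 (17.1%). The typical lysosomal gene therefore moved by less than 2-fold, and its arrays lay close together, with a median SD within a group of 0.114 against 0.182 over all genes. The 4 comparisons share the 3 vehicle arrays and are given side by side for that reason.

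**Figure D1:**
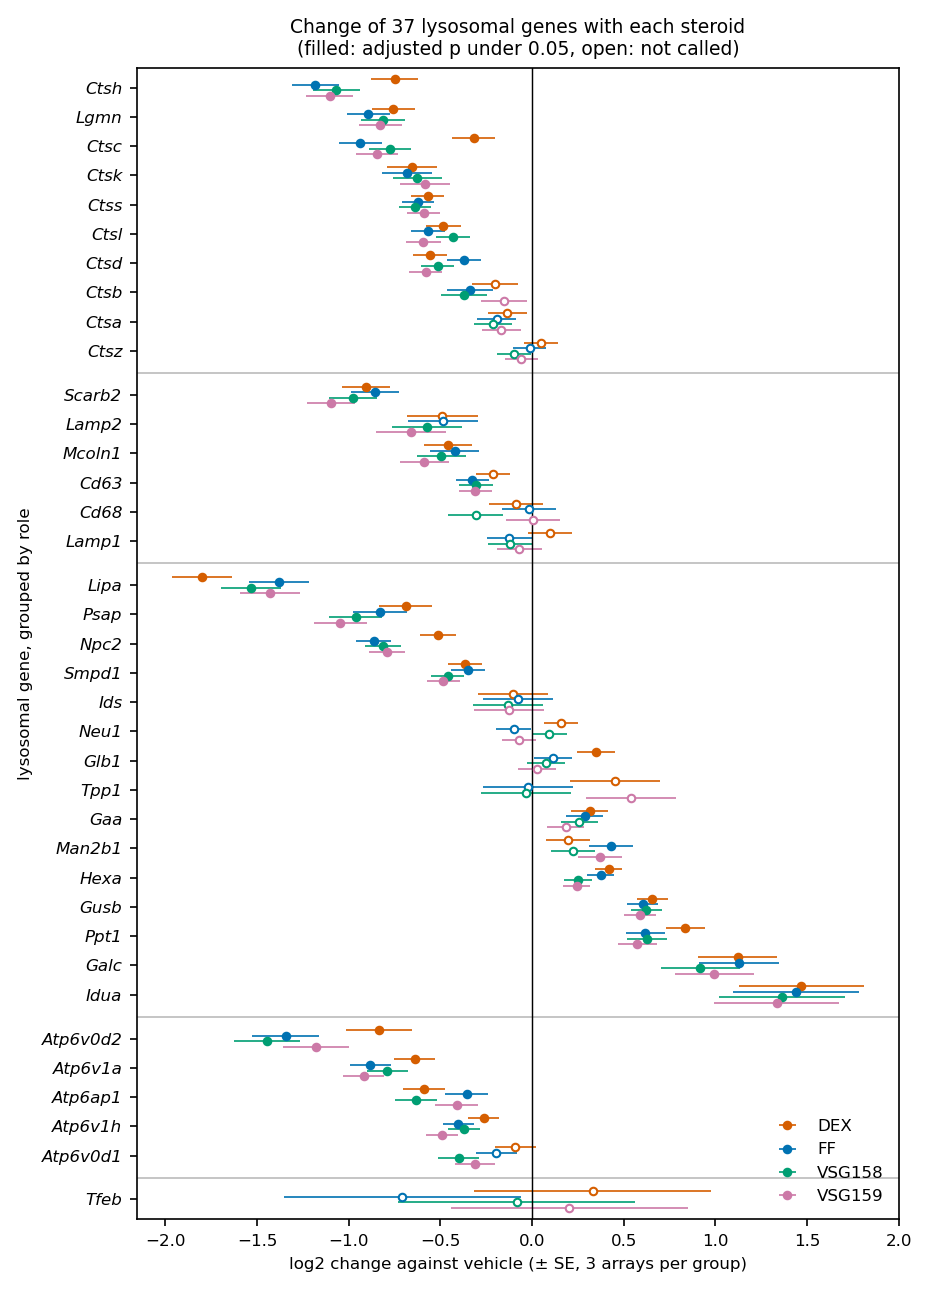
Log2 change of each of the 37 lysosomal genes against vehicle (horizontal axis, with the SE from 3 arrays a group), grouped by role from cathepsins at the top to Tfeb at the bottom; filled points were called and open points were not. Cathepsins, membrane proteins and pump subunits lie at or left of 0 wherever called, while the hydrolases run from Lipa at -1.80 to Idua at 1.47 with DEX.

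Of the 10 cathepsins and related proteases, 7 fell with DEX or with VSG159 and 8 with FF or with VSG158, and none rose. The share of all genes called lower was 23.1%, 21.4%, 24.5% and 25% with DEX, FF, VSG158 and VSG159. Ctsd (the aspartic protease cathepsin D), Ctsh, Ctsk (the collagen-degrading cathepsin K), Ctsl, Ctss (cathepsin S, which trims the invariant chain in antigen presentation), Ctsc and Lgmn (legumain, which processes other cathepsins) fell with all 4 steroids. Lgmn fell by 0.76, 0.89, 0.81 and 0.83 on the log2 scale with DEX, FF, VSG158 and VSG159. Ctss fell by 0.57 to 0.64, Ctsk by 0.59 to 0.68, Ctsd by 0.37 to 0.58 and Ctsl by 0.43 to 0.59. With the mean of its 2 tested probes, Ctsl changed by 0.031, 0.34 and 0.26 with DEX, FF and VSG158. It was not called with VSG159 in that fit, so the fall of Ctsl is that of its brightest probe. Ctsb (cathepsin B) fell by 0.34 with FF and by 0.37 with VSG158 but was not called with DEX or VSG159. Ctsa (the protective protein of galactosidase and neuraminidase) and Ctsz (a carboxypeptidase) were not called, at changes of -0.21 to -0.13 and -0.10 to 0.05. A second Ctsa probe was called lower with DEX (-0.71, adjusted p = 0.004), VSG158 (-0.90, adjusted p = 0.000775) and VSG159 (-0.64, adjusted p = 0.00707). A fixed slide block ended the calls with FF of Ctsd (-0.35, adjusted p = 0.118) and Ctsb (-0.19, adjusted p = 0.539). The Ctsb call with FF (adjusted p = 0.0465) was lost in 10 of the 15 fits that leave out 1 array (adjusted p 0.0529 to 0.158), those without vehicle 2 or 3 (arrays are named by group and replicate number), VSG158 2, VSG159 1 or 2, any FF array, or DEX 2 or 3. With VSG158 it was lost without vehicle 2 or 3 or VSG158 2 or 3 (adjusted p 0.0675 to 0.108).

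Ctsh encodes an aminopeptidase that also matures surfactant protein, and its probe lies at chr9:89970828-89970887 of the mm9 build (the array design's build, used for all probes here). Its level, as log2 signal over the array's 75th percentile, was -1.01, -0.75 and -0.55 on the vehicle arrays. With DEX it was -1.65, -1.56 and -1.34, with FF -2.07, -1.82 and -1.97, with VSG158 -1.89, -1.88 and -1.73 and with VSG159 -1.75, -1.92 and -1.95. Every steroid array was below every vehicle array, and the DEX arrays were above those of the other 3 steroids. The changes from vehicle were -0.75 with DEX (SE 0.128, adjusted p = 0.00052), -1.18 with FF (adjusted p = 1.2e-05), -1.07 with VSG158 (adjusted p = 2.95e-05) and -1.10 with VSG159 (adjusted p = 2.13e-05), or 1.68-fold, 2.27-fold, 2.10-fold and 2.15-fold lower.

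Ctsc encodes dipeptidyl peptidase I, which activates serine proteases of granules (probe at chr7:95458436-95458495). The vehicle arrays read 4.36, 4.12 and 4.32. The DEX arrays read 4.12, 3.78 and 3.95, the FF arrays 3.25, 3.42 and 3.32, the VSG158 arrays 3.44, 3.64 and 3.40, and the VSG159 arrays 3.32, 3.39 and 3.57. The highest DEX array reached the lowest vehicle array, whereas the arrays of the other 3 steroids were all below both groups. Ctsc fell by 0.94 with FF (SE 0.116, adjusted p = 3.72e-05), by 0.78 with VSG158 (adjusted p = 0.00017) and by 0.85 with VSG159 (adjusted p = 8.42e-05). With DEX the change was -0.32 (adjusted p = 0.0405), and this call was lost without vehicle 1 or 3, VSG158 1, VSG159 2, FF 3 or DEX 2 or 3 (adjusted p 0.0502 to 0.155). Its other 2 tested probes were called lower with all 4 steroids, with changes of -1.46 and -1.44 with DEX and -1.84 and -1.18 with FF.

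Of the 6 membrane proteins, 2 fell with DEX, 3 with FF and 4 each with VSG158 and VSG159, and none rose. Of all genes, 46.3%, 42.2%, 44.2% and 44.1% were called with DEX, FF, VSG158 and VSG159. The shares called lower were 23.1%, 21.4%, 24.5% and 25%. Scarb2 (a lysosomal membrane protein of the CD36 family) and Mcoln1 (a lysosomal calcium channel) fell with all 4. Mcoln1 fell by 0.46, 0.42, 0.50 and 0.59 with DEX, FF, VSG158 and VSG159. Lamp2, a major membrane glycoprotein that also serves chaperone-mediated autophagy, fell by 0.57 with VSG158 and by 0.66 with VSG159, and its changes of -0.49 with DEX and with FF were not called (adjusted p = 0.055 and 0.0616). Cd63, a tetraspanin, fell by 0.33 with FF and by 0.31 with each of VSG158 and VSG159. Lamp1, the other major membrane glycoprotein, and Cd68, a macrophage sialomucin, were not called at their brightest probes, at -0.12 to 0.10 and -0.31 to 0.00. A second Lamp1 probe was called lower with FF (-0.25, adjusted p = 0.0441), VSG158 (-0.26, adjusted p = 0.0399) and VSG159 (-0.46, adjusted p = 0.0015), and of 2 other Cd68 probes 1 was called lower with VSG158 (-0.36, adjusted p = 0.0121).

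Several of these membrane protein calls changed when arrays were left out. Leaving out an array of a group outside the comparison leaves the change itself as it was. Without the 3 non-uniform arrays, which leaves VSG159 with 1 array, Lamp2 was called with DEX and FF (adjusted p = 0.00676 and 0.00739) and no longer with VSG158 (-0.35) or VSG159 (-0.33), and Mcoln1 changed by -0.25 with VSG159 (adjusted p = 0.114). Leaving out any 1 vehicle array or VSG158 3 ended the Lamp2 call with VSG158 (adjusted p 0.0544 to 0.114), and leaving out VSG159 1 or 2 ended it with VSG159 (0.0531 and 0.062). The Lamp2 change with DEX passed without VSG158 3, VSG159 3 or DEX 1 (0.0188 to 0.0346), and with FF without VSG158 3 or VSG159 3 (0.0206 and 0.0391). For Cd63, leaving out vehicle 3 ended the call with FF (0.053), vehicle 2, vehicle 3 or VSG158 3 the call with VSG158 (0.0558 to 0.0676) and vehicle 2 or 3 the call with VSG159 (0.054 and 0.065), while leaving out vehicle 1 added 1 with DEX (0.0185). For Mcoln1, leaving out vehicle 1 ended the calls with DEX and FF (0.0575 and 0.0849), as did FF 1 or FF 3 with FF (0.0574 and 0.0733). Cd68 passed with VSG158 without vehicle 1 (-0.46, 0.0214). In the fit with a fixed slide block, Lamp2 passed with DEX and FF (-0.98 each, 0.0263 and 0.0295) and Cd63 was lost with FF (0.121).

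The Scarb2 probe is placed at chr5:92877571-92878904, a span longer than the probe. The vehicle arrays of Scarb2 read 2.70, 2.69 and 2.54. With DEX they read 1.79, 1.79 and 1.64, with FF 1.80, 1.82 and 1.74, with VSG158 1.85, 1.79 and 1.37, and with VSG159 1.37, 1.53 and 1.75. No steroid array reached the vehicle range, and the 4 steroid groups overlapped one another. Scarb2 fell by 0.91 with DEX (SE 0.132, adjusted p = 0.000162), by 0.86 with FF (adjusted p = 0.000208), by 0.98 with VSG158 (adjusted p = 7.75e-05) and by 1.10 with VSG159 (adjusted p = 2.92e-05). A second tested probe of Scarb2 did not show this, with changes of 0.11 with FF, 0.01 with VSG158 and 0.15 with VSG159 (adjusted p = 0.418, 0.959 and 0.265), so the fall is that of 1 probe.

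The 15 hydrolases and helper proteins went both ways. With DEX 7 rose and 4 fell, with FF 7 and 4, with VSG158 5 and 4 and with VSG159 6 and 4. Shares of all genes called in these comparisons were 23.2%, 20.9%, 19.7% and 19.1% higher and 23.1%, 21.4%, 24.5% and 25% lower. Of the 15, the 4 that fell, each with all 4 steroids, were Lipa, Psap, Npc2 (which hands cholesterol to the membrane transporter NPC1) and Smpd1 (acid sphingomyelinase). Npc2 fell by 0.51, 0.86, 0.81 and 0.79 with DEX, FF, VSG158 and VSG159, and Smpd1 by 0.35 to 0.48. Those that rose with all 4 were Galc, Idua, Gusb (beta-glucuronidase), Hexa (a subunit of beta-hexosaminidase) and Ppt1 (palmitoyl-protein thioesterase). Gusb rose by 0.59 to 0.66, Ppt1 by 0.57 to 0.84 and Hexa by 0.24 to 0.42. With the mean of its 2 tested probes, Gusb changed by 0.031, 0.039 and -0.040 with DEX, VSG158 and VSG159. With FF its change in that fit was no smaller than 0.45, the lowest over the alternatives planned beforehand (adjusted p = 0.131 in that fit). Gusb was called with no steroid in that fit, so its rise with DEX, VSG158 and VSG159 is that of its brightest probe. Gaa (acid alpha-glucosidase) rose by 0.32 with DEX and 0.29 with FF, Man2b1 (alpha-mannosidase) by 0.43 with FF and 0.37 with VSG159, and Glb1 (beta-galactosidase) by 0.35 with DEX. Ids (iduronate sulfatase), Neu1 (sialidase) and Tpp1 (tripeptidyl peptidase) were not called, at -0.13 to -0.08, -0.10 to 0.16 and -0.03 to 0.54.

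Calls of the smaller rises among the hydrolases also changed when single arrays were left out. Hexa was lost with VSG158 without vehicle 1 or VSG158 2 (adjusted p = 0.0593 and 0.0623), and with VSG159 without vehicle 1, vehicle 3 or VSG159 2 (0.0529 to 0.0679). Gaa with DEX was -0.071 with normexp background correction and quantile normalization together. It was lost with DEX without vehicle 2, DEX 2 or DEX 3 (0.0696 to 0.0802) and with FF without any 1 vehicle array, FF 2 or FF 3 (0.0641 to 0.159), and it passed with VSG158 without VSG159 2, FF 3 or DEX 1 (0.0477 to 0.0485). Glb1 was lost with DEX without vehicle 1 or DEX 1 (0.0622 and 0.0504). Man2b1 was lost with FF without FF 2 (0.0532) and with VSG159 without vehicle 2, vehicle 3, VSG159 2 or VSG159 3 (0.0512 to 0.0805). Tpp1 read 6.35 and 6.49 on VSG159 arrays 1 and 2 but 5.35 on array 3, beside 5.39, 5.40 and 5.78 with vehicle. Without VSG159 3, Tpp1 passed with DEX (0.45, adjusted p = 0.0151) and with VSG159 (0.89, adjusted p = 0.0005). Without the 3 non-uniform arrays it passed with DEX (adjusted p = 0.0202) and its change with VSG159 was -0.17. With slide as a fixed block the calls of Npc2 with DEX (-0.42, adjusted p = 0.0748), Hexa with FF (0.37, 0.0508), Gaa with DEX and FF (0.294 and 0.361) and Man2b1 with FF and VSG159 (0.722 and 0.0808) were lost, while Tpp1 rose by 1.52 with DEX and 1.04 with FF (adjusted p = 0.000808 and 0.00656).

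Lipa (probe at chr19:34567717-34567776), the acid lipase that frees cholesterol and fatty acids from engulfed lipoprotein, had the most negative change from vehicle of the 37 genes with each steroid. Its level read 4.15, 3.91 and 3.71 with vehicle. It read 2.09, 2.42 and 1.86 with DEX, 2.53, 2.67 and 2.44 with FF, 2.55, 2.46 and 2.18 with VSG158 and 2.37, 2.43 and 2.69 with VSG159. Each steroid array lay more than 1 log2 unit below the lowest vehicle array. Lipa fell by 1.80 with DEX (SE 0.164, adjusted p = 3.87e-06), by 1.38 with FF (adjusted p = 2.74e-05), by 1.53 with VSG158 (adjusted p = 1.17e-05) and by 1.43 with VSG159 (adjusted p = 2.02e-05), or 3.49-fold, 2.60-fold, 2.89-fold and 2.69-fold. With slide and array position in the fit its change was -0.73 with DEX (adjusted p = 0.719), -0.70 with FF (0.501) and -0.81 with VSG159 (0.156), none called. Position ran in group order on each slide, so that fit can hardly separate position from steroid.

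Psap encodes prosaposin, the precursor of the saposins that present sphingolipids to their hydrolases (probe at chr10:59764825-59764884). The vehicle arrays read 5.49, 6.15 and 5.69. The DEX arrays read 4.99, 5.19 and 5.08, the FF arrays 5.00, 4.88 and 4.95, the VSG158 arrays 4.73, 4.77 and 4.93, and the VSG159 arrays 4.81, 4.80 and 4.58. The vehicle arrays spread most (SD 0.337), yet all were above every steroid array. Psap fell by 0.69 with DEX (SE 0.145, adjusted p = 0.00219), by 0.83 with FF (adjusted p = 0.000561), by 0.96 with VSG158 (adjusted p = 0.000182) and by 1.05 with VSG159 (adjusted p = 9.21e-05). With slide as a fixed block the changes were -0.47 with DEX (adjusted p = 0.167) and -0.61 with FF (adjusted p = 0.0858).

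Galc encodes galactosylceramidase, which degrades galactolipids of myelin (probe at chr12:99441131-99441190). Its vehicle arrays read -3.54, -4.06 and -3.85. The DEX arrays read -2.41, -2.52 and -3.15, the FF arrays -2.32, -2.80 and -2.94, the VSG158 arrays -2.94, -2.99 and -2.75, and the VSG159 arrays -2.95, -2.86 and -2.64. All steroid arrays were above all vehicle arrays, at a low signal where 1 of 15 arrays was not well above background. Galc rose by 1.12 with DEX (SE 0.216, adjusted p = 0.0012), by 1.13 with FF (adjusted p = 0.00107), by 0.92 with VSG158 (adjusted p = 0.00426) and by 1.00 with VSG159 (adjusted p = 0.00252). With slide as a fixed block the rise was 0.86 with DEX (adjusted p = 0.101) and 0.87 with FF (adjusted p = 0.105).

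Idua encodes iduronidase, which cuts heparan and dermatan sulfate (probe at chr5:109112893-109112952). It read -0.89, 0.34 and 0.18 with vehicle, so vehicle array 1 was low (SD 0.666). It read 0.98, 1.57 and 1.49 with DEX, 1.54, 0.86 and 1.56 with FF, 1.28, 0.97 and 1.47 with VSG158 and 1.56, 1.40 and 0.67 with VSG159. Every steroid array exceeded the highest vehicle array. Idua rose by 1.47 with DEX (SE 0.343, adjusted p = 0.00417), by 1.44 with FF (adjusted p = 0.0047), by 1.36 with VSG158 (adjusted p = 0.00647) and by 1.33 with VSG159 (adjusted p = 0.00736). With slide as a fixed block it rose by 2.28 with DEX and 2.26 with FF, and without the 3 non-uniform arrays its change with VSG159 was 0.79 (adjusted p = 0.256).

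**Figure D2:**
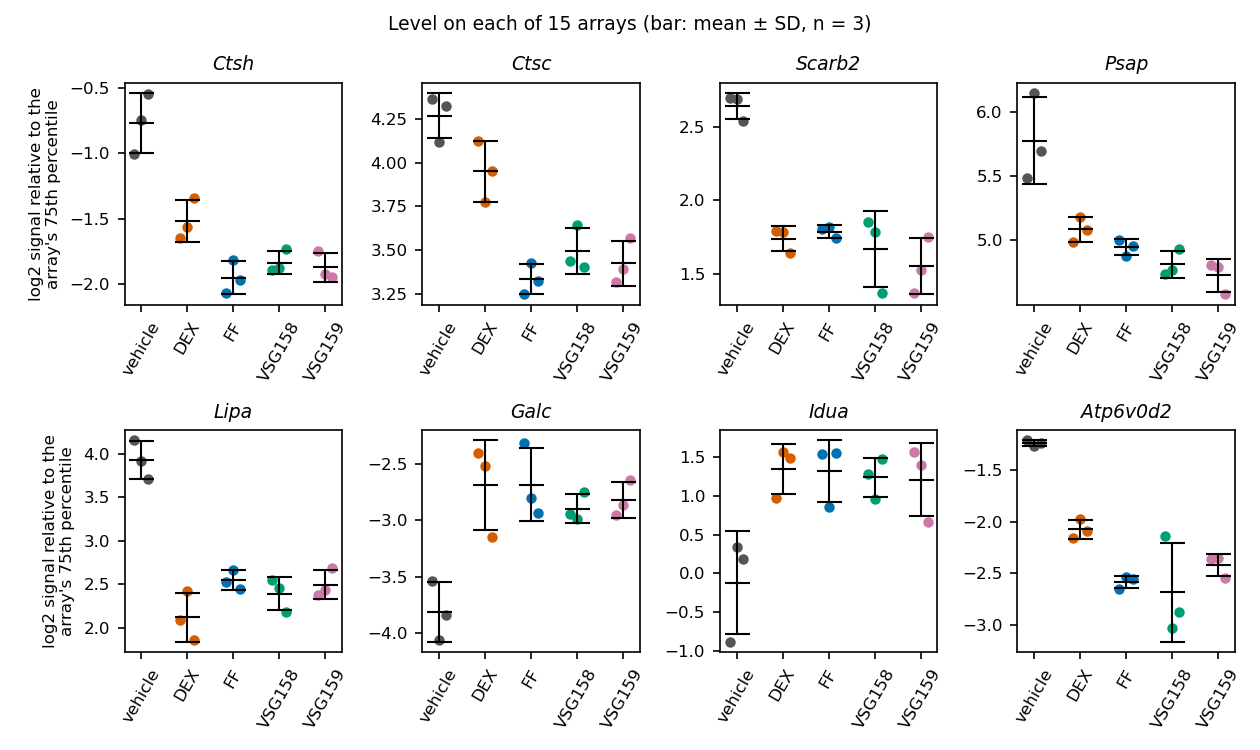
Log2 signal over the array's 75th percentile (vertical axis, a scale of its own in each panel) of the 8 lysosomal genes described array by array, in vehicle and the 4 steroid groups; points are arrays, and bars give the mean and SD of 3. Vehicle stands above the steroid groups for Ctsh, Scarb2, Psap, Lipa and Atp6v0d2 and below them for Galc and Idua, and the DEX mean of Ctsc (3.95) lies between those of vehicle (4.27) and the other steroids.

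All 5 proton pump genes fell with VSG158 and with VSG159, and 4 of 5 with DEX and with FF. Among all genes, 23.1%, 21.4%, 24.5% and 25% were called lower with DEX, FF, VSG158 and VSG159. Atp6v1a, the ATP-binding catalytic subunit, fell by 0.64, 0.88, 0.79 and 0.92 with DEX, FF, VSG158 and VSG159. Atp6ap1, an accessory protein of pump assembly, fell by 0.59, 0.36, 0.63 and 0.41, and Atp6v1h, a regulatory subunit, by 0.26, 0.40, 0.37 and 0.49. Atp6v0d1, the widely expressed d subunit of the membrane sector, fell by 0.40 with VSG158 and 0.31 with VSG159 and was not called with DEX (-0.09) or FF (-0.20). Atp6v1h was lost with DEX without vehicle 1, DEX 2 or DEX 3 (adjusted p 0.0657 to 0.0792). Atp6ap1 was lost with FF without vehicle 1, vehicle 2, FF 1 or FF 3 (0.0598 to 0.119) and with VSG159 without vehicle 2 (0.0559). Atp6v0d1 was lost with VSG158 without vehicle 2 (0.054), and with VSG159 without vehicle 2 or 3, any VSG159 array, FF 3 or DEX 2 (0.0514 to 0.165). Under the fixed slide block Atp6ap1 changed by -0.54 with DEX (adjusted p = 0.0661) and -0.30 with FF (0.289) and Atp6v0d1 by -0.30 with VSG159 (0.0708), none called.

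Atp6v0d2 encodes the d subunit that is prominent in osteoclasts and some macrophages (probe at chr4:19805367-19805426). The vehicle arrays read -1.21, -1.27 and -1.24. The DEX arrays read -2.16, -1.98 and -2.09, the FF arrays -2.65, -2.54 and -2.56, the VSG158 arrays -2.14, -3.04 and -2.88, and the VSG159 arrays -2.37, -2.35 and -2.55. All steroid arrays were below vehicle, and VSG158 array 1 lay among the DEX arrays, apart from the other VSG158 arrays. Atp6v0d2 fell by 0.84 with DEX (SE 0.181, adjusted p = 0.00258), by 1.34 with FF (adjusted p = 7.11e-05), by 1.45 with VSG158 (adjusted p = 4.18e-05) and by 1.18 with VSG159 (adjusted p = 0.000201). With slide as a fixed block the change with DEX was -0.65 (adjusted p = 0.137). Of 8 osteoclast genes listed, Atp6v0d2 and Ctsk among them, 7 were measured. Their summed level was 4.09 to 4.41 with vehicle, 4.63 to 4.76 with DEX, 4.42 to 4.63 with FF, 4.41 to 4.61 with VSG158 and 4.39 to 4.74 with VSG159. The brightest genes weigh most in that sum, so it does not show that the list rose. The median log2 change of the 7 genes was -0.21, -0.41, -0.16 and -0.48 with DEX, FF, VSG158 and VSG159. The part of the summed level in the fall of Atp6v0d2 and Ctsk was not tested.

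Tfeb was not called with any steroid. Its brightest probe read 1.23, 1.75 and 1.74 with vehicle. It read 1.28, 1.64 and 2.79 with DEX, 0.49, 0.70 and 1.40 with FF, 0.81, 0.74 and 2.91 with VSG158 and 2.45, 2.34 and 0.54 with VSG159. All 4 steroid groups overlapped vehicle, and the arrays within DEX, VSG158 and VSG159 lay further apart than any pair of group means (SE of a change 0.646). The other tested probes of Tfeb differed from it: 2 fell with DEX, by 1.08 and 1.00, and with VSG158, by 1.17 and 0.90, all called, and the remaining probe was not called in any comparison with vehicle.

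Because a gene was read by 1 probe, the other tested probes were set beside it. Of the 37 genes, 20 had 1 tested probe and 17 had several, with 27 further probes. For genes called with DEX, 6 of 18 further probes were called in the same direction, 6 moved that way without being called and 6 had the other sign. With FF these counts were 6, 4 and 4 of 14, with VSG158 8, 2 and 5 of 15, and with VSG159 8, 0 and 7 of 15. The falls of Atp6ap1 and Atp6v1h were called at a second probe with all 4 steroids, as was that of Smpd1, which changed there by -1.80 to -1.72. A second Lamp2 probe fell by 1.05 with DEX and 1.53 with FF (adjusted p = 1.02e-05 and 3.45e-07), where the brightest was not called. The rise of Ppt1 was called at none of its other 3 probes, which changed by -0.24 to 0.30. The rise of Glb1 with DEX was opposed by a probe that fell by 0.66 (adjusted p = 0.0127), while another rose by 0.34 (adjusted p = 0.0102).

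**Figure D3:**
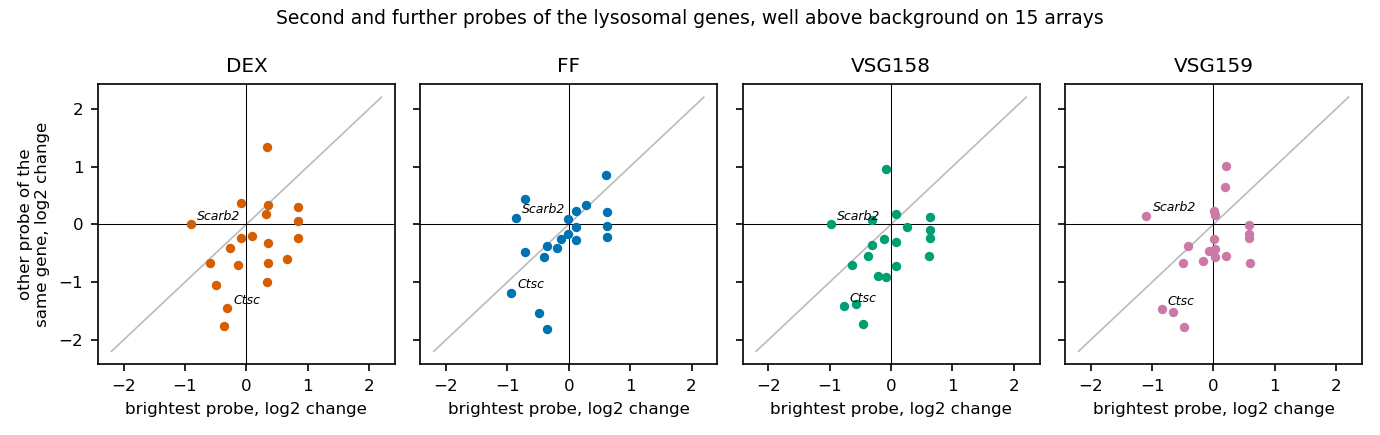
Log2 change against vehicle of each further tested probe that was well above background on all 15 arrays (vertical axis) against that of the gene's brightest probe (horizontal axis), 1 panel per steroid and 20 probes of 14 genes; the grey line marks equal change. The Ctsc probe lies below the line (-1.44 against -0.32 with DEX), and the Scarb2 probe lies near 0 on the vertical axis at -0.91 with DEX.

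The 4 steroids were compared with one another at equal dose and time, in 6 pairs with p-values adjusted within each pair over all genes. VSG158 shared no slide with FF or DEX, and VSG159 shared slide 2 with them in array 3 alone. Of the 37 genes, 1 differed between FF and DEX (4.14% of all genes), 1 between VSG159 and DEX (5.56%) and none between VSG158 and DEX (2.02%); in both cases the gene was Ctsc, which was lower (2.28% and 4.11% of all genes). Ctsc was lower with FF than with DEX by a log2 difference of -0.62 (95% interval -0.87 to -0.36, adjusted p = 0.0179), and with VSG159 than with DEX by -0.53 (-0.78 to -0.27, adjusted p = 0.0275). With VSG158 the difference was -0.46 (-0.71 to -0.20, adjusted p = 0.071). The Ctsc arrays of all 3 lay below those of DEX. Its other 2 probes were not called between FF and DEX, at -0.38 and 0.26 (adjusted p = 0.221 and 0.413), nor between VSG159 and DEX, at -0.33 and -0.03 (0.308 and 0.954). Both calls were also lost in several fits that leave out 1 array. The FF call was lost without any 1 FF array, DEX 1 or DEX 3 (differences -0.66 to -0.53, adjusted p 0.0538 to 0.0804). Calls over all genes fell there from 807 to between 131 and 217. The VSG159 call was lost without VSG159 1 or 2 or DEX 1 or 3 (differences -0.52 to -0.44, adjusted p 0.0829 to 0.102). Calls over all genes fell there from 1083 to between 194 and 507. It was also lost without the 3 non-uniform arrays, which leaves VSG159 with 1 array. On slide 2 alone, which holds both FF and DEX, the difference was -0.62 (adjusted p = 0.0509), and Atp6v0d2 passed there (-0.51, adjusted p = 0.0445).

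No lysosomal gene differed between VSG158 and FF, VSG159 and FF, or VSG158 and VSG159, where 0% of all genes passed. At an unadjusted p under 0.05 the lysosomal genes numbered 1, 2 and 1 in these pairs, where 6.29%, 6.02% and 6.15% of all genes passed. In the pairs with DEX they numbered 7 for FF, 7 for VSG158 and 11 for VSG159, where 22.4%, 16.8% and 22.1% of all genes passed. The log2 difference of FF from DEX was -0.43 for Ctsh (95% interval -0.71 to -0.15, adjusted p = 0.0773), -0.35 for Npc2 (-0.56 to -0.14, adjusted p = 0.0665) and 0.42 for Lipa (0.07 to 0.78, adjusted p = 0.156). None of these 3 was called. Groups without overlap were more frequent: all arrays of FF were below those of DEX for 11 genes (21.3% of all genes) and above for 4 (17.1%). For VSG158 against DEX these were 10 (15.3%) and 0 (6.64%), and for VSG159 against DEX 12 (19.3%) and 1 (7.46%). For VSG158 against FF they were 4 (9.85%) and 1 (4.24%), for VSG159 against FF 3 (8.45%) and 0 (2.75%), and for VSG158 against VSG159 1 (3.04%) and 1 (5.08%). Glb1 and Ppt1, which rose with DEX, were among the genes on lower arrays than DEX with each of the other 3 steroids, with log2 differences from DEX for Ppt1 of -0.22 with FF, -0.21 with VSG158 and -0.26 with VSG159.

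Where no difference was called, the intervals give its range in the fit without slide. For VSG158 or VSG159 against FF or DEX they also hold any difference between slides. The samples may be technical, so the intervals may leave out the spread between cultures. The 95% interval lay within 2-fold for 35 of 37 genes between FF and DEX, 34 between VSG158 and DEX, 36 between VSG159 and DEX, 36 between VSG158 and FF, 35 between VSG159 and FF and 35 between VSG158 and VSG159. Tfeb was outside in all 6 pairs, Tpp1 in 4 and Atp6v0d2 between VSG158 and DEX. Atp6v0d2 passed between VSG158 and DEX without VSG158 1 (-0.88, adjusted p = 0.00425) as did the pair FF and DEX (-0.51, adjusted p = 0.0162), and Atp6v1a between VSG159 and DEX without VSG159 3 (-0.39, adjusted p = 0.0454). Tpp1 passed without VSG159 3 between VSG159 and FF (0.92, adjusted p = 0.0364) and between VSG158 and VSG159 (-0.93, adjusted p = 0.0484). Without the 3 non-uniform arrays Npc2 also differed between FF and DEX (-0.35, adjusted p = 0.0492).

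**Figure D4:**
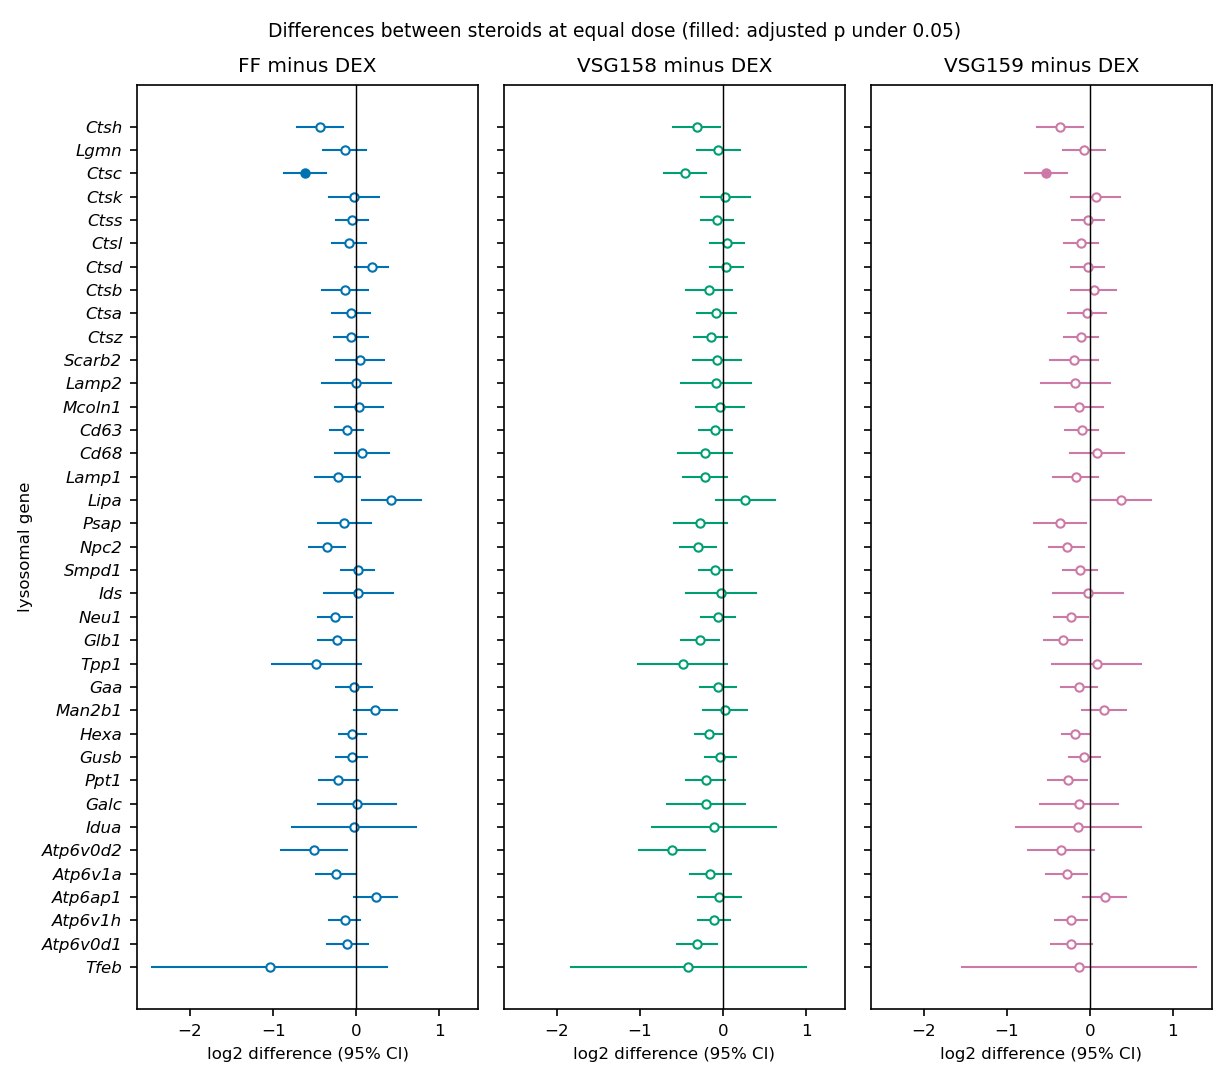
Log2 difference of FF, VSG158 and VSG159 from DEX (horizontal axis, bars give the 95% interval) for the 37 lysosomal genes, ordered by role; filled points were called. Ctsc with FF (-0.62) and with VSG159 (-0.53) are the called points, and Tfeb has the widest intervals.

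Vehicle and VSG158 share slide 1, which allows their comparison within a slide. On slide 1 alone 22 of 37 lysosomal genes were called with VSG158 and 22 with VSG159, against 26 each over all arrays, with medians of -0.37 and -0.32. Those lost there were Ctsb, Lamp2, Cd63 and Hexa with VSG158 (adjusted p 0.0507 to 0.0753) and Cd63, Hexa, Man2b1, Atp6v0d1 and Atp6ap1 with VSG159 (0.0836 to 0.154), and Tpp1 was added with VSG159 (0.00496). Over all genes, 7960 of 19496 were called on slide 1 alone with VSG158 and 8734 of 19267 with VSG159. DEX and FF had no array beside vehicle, so slide could be fitted as a block only through VSG159, whose 3 arrays span both slides. The slide term is then VSG159 array 3 against VSG159 arrays 1 and 2, which are both non-uniform arrays. In that fit every change with DEX or FF therefore also carries the difference between those VSG159 arrays. With that fixed block 19 lysosomal genes were called with DEX and 19 with FF, and the median with DEX was -0.42. In that fit 8244 of 19495 genes were called in all with DEX and 7357 of 19496 with FF. With slide as a random block 24 and 22 lysosomal genes were called, and 7953 of 19495 and 6827 of 19496 genes in all. With the position of the array on its slide added as well, a fit chosen after seeing the data, 0, 1, 16 and 5 lysosomal genes were called with DEX, FF, VSG158 and VSG159, and 38, 1067, 5817 and 2799 genes in all. Positions ran in group order, on slide 1 from vehicle at 1 to 3 up to VSG159 at 7 and 8. On slide 2 they ran from VSG159 at 1 through FF at 2 to 4 to DEX at 5 to 7. That fit can hardly separate position from steroid, so no conclusion is drawn from its lost calls.

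Lists of related genes were counted in the same way, beside 46.3%, 42.2%, 44.2% and 44.1% of all genes called with DEX, FF, VSG158 and VSG159 (23.1%, 21.4%, 24.5% and 25% lower, and 23.2%, 20.9%, 19.7% and 19.1% higher). Of 28 other hydrolases measured, 12 fell and 6 rose with DEX, 11 and 3 with FF, 14 and 2 with VSG158 and 13 and 1 with VSG159. Hyal1, a hyaluronidase, fell by 1.39, 1.98, 1.91 and 1.94, and Plbd2, a phospholipase B-like protein, by 0.55, 0.77, 0.64 and 0.73. Of 22 other membrane proteins, 10 fell and 4 rose with DEX, and 12 fell and 2 rose with each of the other 3. Npc1, the cholesterol transporter that receives cholesterol from the Npc2 product, fell by 1.05, 1.05, 1.20 and 1.06. Of 15 other pump subunits, 7, 5, 8 and 7 fell and 2 rose with each steroid. Atp6v1d and Tcirg1 fell by 0.65 to 0.89 and 0.52 to 0.73, while Atp6v0a2 rose by 0.66 to 0.80.

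**Figure D5:**
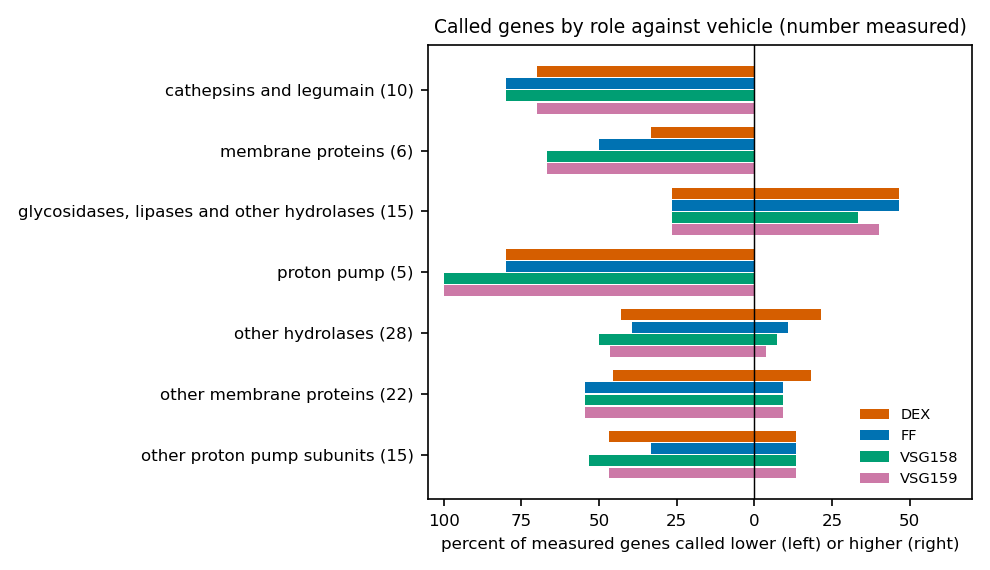
Percent of measured genes called lower (left of 0) or higher (right of 0) against vehicle in each role of the 37 lysosomal genes and in 3 lists of other lysosomal genes, with 1 bar per steroid and the number measured in brackets. The proton pump reaches 100% lower with VSG158 and VSG159, and the 15 hydrolases show bars on both sides. For all genes (not drawn), 23.1%, 21.4%, 24.5% and 25% were called lower with DEX, FF, VSG158 and VSG159. The shares called higher were 23.2%, 20.9%, 19.7% and 19.1%.

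Against those same shares over all genes (46.3%, 42.2%, 44.2% and 44.1% called), the regulatory lists were mixed. Among the 7 relatives and partners of TFEB, 5 fell and 1 rose with DEX, and 6 fell with each of the other 3. Tfe3 fell by 0.33, 0.31, 0.45 and 0.47, and Fnip2, a partner of the folliculin complex that controls these factors, by 0.52, 1.11, 0.95 and 1.23. Mitf was not called with DEX (-0.25) and fell by 0.57 to 0.62 with the others. In the mannose 6-phosphate route 3 of 9 rose and 3 fell with DEX, 3 and 2 with FF, 2 and 3 with VSG158 and 4 and 4 with VSG159: Gnptab, which makes the tag, rose by 0.82 to 1.04 and Nagpa, which uncovers it, fell by 0.74 to 1.00. Of 8 Ragulator and Rag genes, which anchor mTORC1 signalling at the lysosome, 4 rose and 1 fell with DEX, 2 and 2 with FF, 3 and 1 with VSG158 and 2 and 2 with VSG159. Lamtor4 rose by 1.11 to 1.26 and Rragc fell by 1.07 to 1.24.

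The autophagy, inhibitor and osteoclast counts are to be read beside the same 46.3%, 42.2%, 44.2% and 44.1% of all genes called, and several lie near them. Of 16 autophagy genes, 6 fell and 3 rose with DEX, 6 and 2 with FF, 7 and 3 with VSG158 and 8 and 2 with VSG159. Map1lc3b and the cargo receptor Sqstm1 fell by 0.89 to 0.96 and 0.53 to 1.28. Of 5 cathepsin inhibitors, 1 rose and 1 fell with DEX, VSG158 and VSG159, and 2 rose and 1 fell with FF. Stfa3, a stefin, rose by 1.90 to 2.52, and Cstb, cystatin B, fell by 0.33 to 0.39. Of 7 osteoclast genes, which include Ctsk and Atp6v0d2, 3 fell and 1 rose with DEX, 2 fell with FF and 3 fell with VSG158 and with VSG159; Dcstamp, a fusion protein gene, fell by 0.63, 0.62 and 0.70 with DEX, VSG158 and VSG159.

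The promoters of 33 of the 37 genes were in the RefSeq table of GRCm38.p6, as 300 bases from 250 before to 50 after the start; Ctsb, Ctsh, Atp6v0d2 and Atp6v1h were not used here. The letters CACGTG, which read the same on both strands, occurred in the promoters of 10 of 33 genes (30.3%), against 8.91% of 17492 protein-coding genes. A gene was counted if any of its listed promoters held the letters. Ctsa and Lgmn have 2 listed promoters each, with the letters in the second alone, from which the Lgmn stretch is given. In the other lysosomal lists they occurred in 13 of 48 (27.1%). The longer GTCACGTG, searched on both strands and containing CACGTG, occurred in 7 of 33 (21.2%), against 3.19% of all. The full palindromic CLEAR consensus, the element named for TFEB targets, occurred in none and in 0.469% of all, and the canonical palindromic glucocorticoid response element in none and in 0.0114% of all. GC content was 55.8% in these promoters and 56.2% in all. A match describes the sequence and is no evidence of binding. The stretches given are those before the start, 5′ to 3′, with CACGTG in capitals, for a protease pair, a channel and a pump subunit that fell with all 4 steroids (Ctsd at chr7:142387860-142388077, minus strand; Lgmn at chr12:102439093-102439201, minus; Mcoln1 at chr8:3500388-3500518, plus; Atp6v1a at chr16:44139325-44139450, minus) and for 2 genes with the letters that did not (Lamp1 at chr8:13159040-13159160, plus; Glb1 at chr9:114400970-114401077, plus).
Ctsd: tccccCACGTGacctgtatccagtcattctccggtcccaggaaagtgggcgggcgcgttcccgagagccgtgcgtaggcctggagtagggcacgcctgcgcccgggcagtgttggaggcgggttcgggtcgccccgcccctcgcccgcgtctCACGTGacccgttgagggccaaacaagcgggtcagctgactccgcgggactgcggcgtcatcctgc
Lgmn: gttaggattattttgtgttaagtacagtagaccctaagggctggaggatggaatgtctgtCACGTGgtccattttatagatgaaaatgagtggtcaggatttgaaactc
Mcoln1: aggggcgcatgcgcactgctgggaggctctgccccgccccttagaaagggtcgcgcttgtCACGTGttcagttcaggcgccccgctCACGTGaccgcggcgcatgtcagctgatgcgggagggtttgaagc
Atp6v1a: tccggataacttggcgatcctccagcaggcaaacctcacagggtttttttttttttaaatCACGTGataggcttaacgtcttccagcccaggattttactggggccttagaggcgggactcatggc
Lamp1: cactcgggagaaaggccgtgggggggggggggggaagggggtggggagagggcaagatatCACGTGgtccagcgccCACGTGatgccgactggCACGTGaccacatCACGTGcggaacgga
Glb1: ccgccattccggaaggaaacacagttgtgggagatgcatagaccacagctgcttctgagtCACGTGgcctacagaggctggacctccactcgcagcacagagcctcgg

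The Lamp1 stretch holds CACGTG 4 times and those of Ctsd and Mcoln1 hold it 2 times each. Of the 10 genes with the letters, 5, 5, 6 and 6 fell with DEX, FF, VSG158 and VSG159, and 2, 1, 0 and 0 rose. Of the 23 genes without them, 9, 10, 11 and 11 fell and 5, 6, 5 and 6 rose. In the same comparisons 23.1%, 21.4%, 24.5% and 25% of all genes were called lower and 23.2%, 20.9%, 19.7% and 19.1% higher. Whether the letters bear on the direction was not tested. Lamp1, with the most copies, was not called at its brightest probe with any steroid, and was called lower at its second probe with FF, VSG158 and VSG159.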

How the data were processed

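Per the labels, Cy3-labelled RNA from 15 samples was hybridised to Agilent arrays, which the authors scanned with Feature Extraction 10.7.3.1, per the file headers (design build mm9). The deposited scanner files give a processed signal intensity per spot, background-subtracted and detrended within 1 array. The authors' value table, used as an alternative, holds log2 values with array medians of 5.80 to 5.83 and correlations of 0.988 to 0.994 with the scanner signal in log2; limma is named without a version in the submitters' processing notes. Its centring and normalization are not given in the sources used here, and 0 of its columns were left unused.

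Of 59305 noncontrol spots (56605 probes), outlier spots were set to missing (1831 values among the genes tested, 0 in the 37 genes). Spots of a probe were averaged, and each array's 75th percentile was subtracted from the log2 processed signal. A probe was tested if well above background on at least 2 of 3 arrays of a group (28508 probes), and the brightest gave its gene's value; 654 symbols were updated by accession. Levels of different probes were not compared, and were added up only for the summed level of osteoclast genes.

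All 15 arrays entered 1 limma 3.58.1 fit (R 4.3.3, lmFit and eBayes, two-sided, group as the only factor), with Benjamini-Hochberg adjustment in each of 10 comparisons. An exact permutation test of 3 against 3 cannot go below 0.1 and was not used. The procedure was tested on simulated data: an earlier, fixed pass mark for recovered changes was not met, and recovery was then judged, and met, against what each gene's spread allows. The number of arrays limits the precision.

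The 37 genes and the other lists were chosen with earlier results of these data known. A gene is given array by array if it changed 2-fold or more against vehicle, called and without overlap, or was called between steroids at 0.58 or more; in other lists, up to 4 genes with the smallest F-test p could be named. Alternatives covered scaling, background, the value table, the filter on dim probes, outlier spots, the mean of probes, slide, replicate number, 2 groups alone and each array left out. Slide with array position, and leaving out the 3 non-uniform arrays, were added after seeing the data.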

Additional observations from a re-analysis of the deposited data

How the results depend on the processing

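Medians of the 37 genes stayed below 0 in all alternatives run. That of DEX was -0.33 in the value table, -0.42 with a fixed slide block, -0.34 with a random one and -0.28 with slide and array position. That of FF was -0.25 with quantile normalization, -0.27 with normexp and quantile normalization together (called normexp from here) and -0.25 in the value table. That of VSG158 was -0.20, -0.23 and -0.30 in these, and that of VSG159 -0.24 with the array median subtracted and -0.40 with slide and position. Leaving out 1 array gave -0.45 to -0.32 for VSG158 and -0.40 to -0.29 for VSG159.

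Calls against vehicle fell to 11, 13, 14 and 12 (DEX, FF, VSG158, VSG159) with the array median subtracted, where calls over all genes also fell, and FF to 17 with normexp and quantile normalization, where quantile normalization alone gave 21. With slide and array position, a fit chosen after seeing the data, they were 0, 1, 16 and 5. Position ran in group order on each slide, so that fit can hardly separate position from steroid. Leaving out 1 array gave 21 to 26, 22 to 27, 22 to 27 and 22 to 26. Without the 3 non-uniform arrays they were 26, 27, 24 and 18. Of the calls, 6 of 24, 9 of 26, 12 of 26 and 10 of 26 held in every alternative run, those 2 added fits (position and non-uniform arrays) aside. The cause was not tested.

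Between steroids, the FF and DEX call became 0 with the array median, quantile, normexp, the value table, no filter, the mean of probes, and slide with position, and 2 with probes above background on all 15 arrays and without the non-uniform arrays; leaving out 1 array gave 0 to 2. The VSG159 and DEX call became 0 in the first 6 of these, with either slide block, 2 groups alone, position and without the non-uniform arrays, and leaving out 1 array gave 0 to 2. VSG158 and DEX had 1 call with the filter on all 15 arrays and with the fixed slide block (0 to 1 without 1 array), VSG158 and VSG159 had 1 with the fixed slide block (0 to 1), and VSG159 and FF 0 to 1.

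Replicate numbers did not pair the arrays: correlations of same-numbered arrays were -0.44 to 0.26, and 1 of 15 arrays correlated best with its own number. With the replicate block 22, 25, 26 and 25 genes were called against vehicle, and 0 between VSG159 and DEX.

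Signs turned as follows. With the mean of all probes, Ctsl was 0.031, 0.34 and 0.26 with DEX, FF and VSG158, Glb1 -0.17, -0.36, -0.39 and -0.30 with the 4 steroids, and Gusb -0.040 with VSG159. Gaa with DEX was -0.071 with normexp, -0.066 in the value table and -0.37 with slide and position, and with FF -0.22 with slide and position. Atp6v0d2 with DEX was 0.10 with slide and position. Tpp1 with FF was 1.04 (adjusted p = 0.00656) with the fixed slide block. Faint probes such as those of Galc and Atp6v0d2 limit what a change can show.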
